A study of Mus musculus with 7 samples.

Results

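The apolipoprotein genes Apoe, Apoa1, Apoa2, Apoa4, Apob, Apoc1, Apoc3, Apod, Apoh and Apom were followed in kidneys of LBR-null mice. They were the rows with these symbols among the 24328 gene symbols listed, and all 10 were found. The group was selected with the difference between LBR-null and WT kidneys already known, so that difference is described here for the members and not tested. The mice were 4 weeks old and of the C57BL/6J strain. The LBR-null mice were homozygous for the ic-J allele (Lbr ic-J/ic-J), a loss-of-function mutation of the gene of the lamin B receptor that every cell of the animal carries, and came from heterozygous breeding of the C57BL/6J-Lbr ic-J/J line. The control was a WT (Lbr+/+) littermate. There were 3 LBR-null mice (4001, 4002 and 4007) and 1 WT mouse (4009). Poly(A) RNA of the pulverized right kidney gave 2 libraries for each mouse except mouse 4002, which gave 1, so 5 LBR-null and 2 WT libraries were compared. Libraries of 1 mouse were averaged and the mouse was the replicate. With a single WT mouse, genotype and any other trait of that animal cannot be told apart.

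Apolipoproteins wrap the lipids of lipoprotein particles and steer them to enzymes and receptors. Most plasma apolipoproteins come from hepatocytes, and APOA4 and APOB also from the enterocytes of the small intestine, whereas APOE is made by many cell types including macrophages. In the kidney the filtered apolipoproteins are taken back up in the proximal tubule by megalin and cubilin, the products of Lrp2 and Cubn. APOD and APOM belong to the lipocalins, which bind small hydrophobic molecules.

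Coordinates of genes are those of the GENCODE vM1 models on mm9, the build of the files. Apoe (chr7:20281458-20284515, minus strand) and Apoc1 (chr7:20274833-20278007, minus strand) lie in a cluster, as do Apoa1 (chr9:46036663-46038549, plus strand), Apoc3 (chr9:46041016-46043719, minus strand) and Apoa4 (chr9:46048779-46051542, plus strand). The other members lie alone, with Apoa2 at chr1:173155185-173156510 (plus strand), Apob at chr12:7984454-8023641 (plus strand), Apod at chr16:31296278-31314894 (minus strand), Apoh at chr11:108204668-108275710 (plus strand) and Apom at chr17:35265942-35268995 (minus strand). Apoa4 overlaps the antisense gene Gm10680, and Apoh overlaps Prkca on the other strand and Gm11656 on its own, so reads of these pairs may be shared. The study sorted genes by CpG islands that met a sequence rule and were also found by affinity purification. Here only the CpG content at the 5′ end of the gene model was measured, so the study's classes of the members are not given. A stretch of CpG island length with at least 50% GC and a ratio of observed to expected CpG over 0.6 lay within 500 bases of that end in 4 of 10 members, Apoe, Apob, Apoh and Apom, and in 66.6% of 19280 genes. The ratio of observed to expected CpG in the 1001 bases around that end ran from 0.121 for Apoa4 to 0.395 for Apoe in 9 members, beside a median of 0.582 over all those genes. It was 0.745 for Apoh, at the start of its longest transcript. At the other coding starts of Apoh the ratio was between 0.259 and 0.278, and the start with 0.259 also had such a stretch within 500 bases.

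The promoters of 4 members are shown because these members stood for the patterns found below, with Apoe, Apoa1 and Apoh higher and Apoa4 lower in every LBR-null library. Each is 300 bases of RefSeq on GRCm38.p6, from 250 before the start to 50 after it. Capitals mark 2 motifs, CAAAGNNCA (a loose form of the core bound by HNF4A) and AGGTCA (the element of many nuclear receptors), each sought on both strands.
Apoe, chr7:19699139-19699438, minus strand: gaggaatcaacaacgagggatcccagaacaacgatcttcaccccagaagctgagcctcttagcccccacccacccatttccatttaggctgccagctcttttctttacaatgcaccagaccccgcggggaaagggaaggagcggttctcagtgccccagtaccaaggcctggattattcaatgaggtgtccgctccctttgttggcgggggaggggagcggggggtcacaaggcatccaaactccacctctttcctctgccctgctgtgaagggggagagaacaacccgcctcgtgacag
Apoa1, chr9:46228380-46228679, plus strand: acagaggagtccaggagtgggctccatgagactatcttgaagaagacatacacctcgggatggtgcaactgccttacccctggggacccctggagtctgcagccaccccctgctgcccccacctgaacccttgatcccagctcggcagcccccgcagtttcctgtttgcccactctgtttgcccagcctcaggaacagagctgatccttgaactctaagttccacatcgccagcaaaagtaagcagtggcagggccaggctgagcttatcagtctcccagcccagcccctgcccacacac
Apoa4, chr9:46240594-46240893, plus strand: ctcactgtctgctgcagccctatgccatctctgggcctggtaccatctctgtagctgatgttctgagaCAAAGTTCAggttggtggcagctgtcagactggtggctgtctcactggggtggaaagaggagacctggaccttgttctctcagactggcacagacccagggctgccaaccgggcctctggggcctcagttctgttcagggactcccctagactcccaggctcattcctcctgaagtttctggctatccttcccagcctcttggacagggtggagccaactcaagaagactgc
Apoh, chr11:108395047-108395346, plus strand: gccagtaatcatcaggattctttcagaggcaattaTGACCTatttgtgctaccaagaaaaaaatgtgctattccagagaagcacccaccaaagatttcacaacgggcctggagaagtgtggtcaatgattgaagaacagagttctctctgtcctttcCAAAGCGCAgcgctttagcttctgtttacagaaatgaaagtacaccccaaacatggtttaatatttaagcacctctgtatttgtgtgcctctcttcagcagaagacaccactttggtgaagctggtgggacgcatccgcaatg
The table of RefSeq promoters used here held 8 of the 10 members, with 11 promoters in all, and those of Apoc1 and Apoc3 were not analysed. The strict HNF4A core CAAAGTCCA was in none of these promoters and in 0.475% of all 32851. The loose form, chosen after the strict core gave no match, was in the promoters of Apoa4, Apob and Apoh and in 6.36% of all promoters. AGGTCA was in the promoter of Apoh and in the other of the Apoa2 promoters, against 16.3% of all. GTTAAT, an HNF1 element, was in the last of 3 Apoe promoters and in 7.10% of all. TATAAA, read on the gene's strand only, was in a promoter each of Apoe, Apoa2 and Apob and in 8.32% of all. The TATAAA and GTTAAT matches are in promoters other than those shown. A match is a stretch of letters and not a measured site.

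Values are normalized counts, that is reads of a gene divided by the size factor of the library, with 20694016 to 26333284 reads on genes behind a library. The fewest reads behind any value of a member were 16, for Apod in WT. Kidney markers were abundant in every mouse. The summed level of 10 proximal tubule markers was 172387 to 321081 in the LBR-null mice and 549553 in WT, that of 8 markers of other nephron segments 91252 to 176820 against 111589, and no marker of either list was at 0. Lbr mRNA was 314 to 495 across the libraries, so it did not separate the genotypes, and a frameshift allele such as ic-J need not lower it. Sex was not given in the labels. Xist was 5352 to 10163 in mice 4001 and 4007 but 31.7 to 65.3 in mouse 4002 and the WT mouse, and the Y-linked Ddx3y was 39.2 to 149 in the former and 1269 to 1516 in the latter. The pair alike in these genes is therefore mouse 4002 and WT, and it is given on its own below. Means, ratios and counts over all LBR-null mice cannot separate genotype from the sex that these genes mark. In whole tissue, fewer cells of a type and less RNA per cell cannot be told apart.

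Apoe, a ligand of several lipoprotein receptors and by far the most abundant member, exceeded WT in each of the LBR-null libraries. Its normalized counts were 140645 and 105524 in mouse 4001, 72087 in mouse 4002, 98962 and 105520 in mouse 4007, and 26384 and 24607 in WT. The lowest LBR-null library was thus well above both WT libraries. The mean over mice was 99138 ± 25640 (SD, n = 3), 3.89 times the WT level, and mice 4001, 4002 and 4007 had ratios of 4.83, 2.83 and 4.01. By normalized count Apoe held rank 53 among all genes in WT and ranks 8, 11 and 6 in mice 4001, 4002 and 4007. Macrophages are a known source of APOE, and the summed level of 11 macrophage markers was 3236 to 3546 in the LBR-null mice against 4582 in WT. Of these markers 2 were 2-fold higher in the LBR-null mean, Cd163 (3.13 times WT, called higher by DESeq2) and Trem2 (2.25 times), and 1 was 2-fold lower, and none was at 0. Their part in the Apoe level was not tested.

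**Figure D1:**
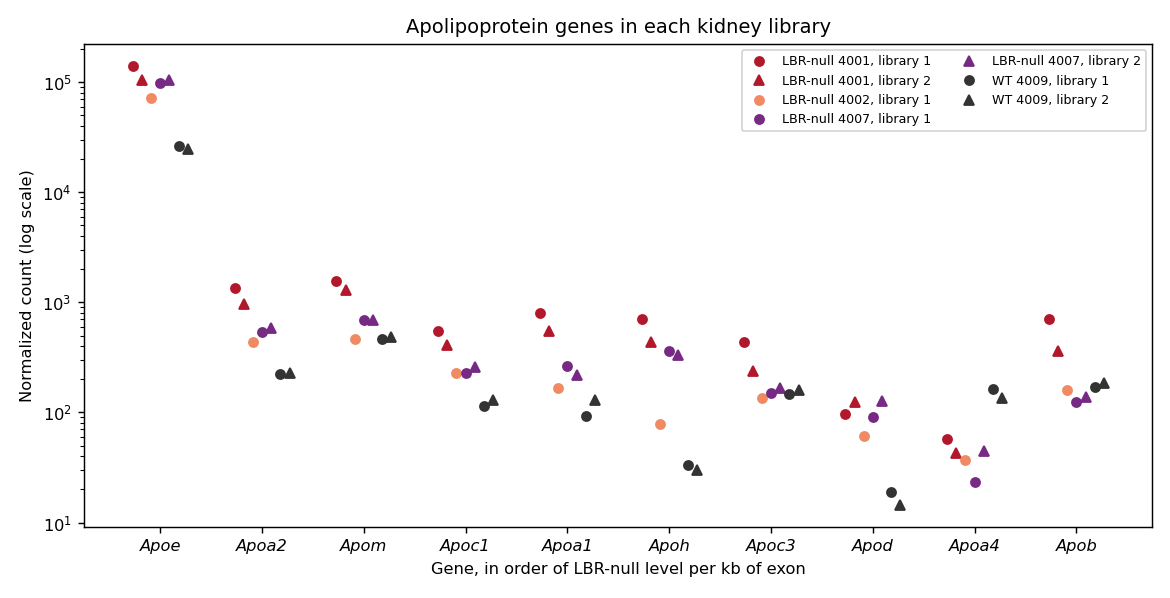
Normalized counts (vertical axis, log scale) of the 10 apolipoprotein genes in each of the 7 libraries, with genes on the horizontal axis in order of their LBR-null level per kb of exon. Colours mark the mouse and symbols the library. Apoe lies far above the rest, and Apoa4 is the gene whose WT libraries lie above all LBR-null libraries.

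Apoa1 and Apoa2, the main proteins of HDL, were also higher in every LBR-null library, and mouse 4001 stood far above the other mice. Apoa1 was 799 and 548 in mouse 4001, 169 in mouse 4002, 263 and 218 in mouse 4007, and 92.9 and 130 in WT. The groups did not overlap, but the gap between mouse 4002 and the higher WT library was small beside the gap between mice 4001 and 4002. The Apoa1 mean was 361 ± 273 (SD, n = 3), 3.23 times WT, with a ratio of 1.51 in mouse 4002. Apoa2 was 1346 and 971 in mouse 4001, 435 in mouse 4002, 540 and 584 in mouse 4007, and 225 and 227 in WT. The LBR-null mice were therefore 1.92 to 5.12 times WT for Apoa2, with a mean of 719 ± 386 (SD, n = 3). Apom, a lipocalin of HDL that carries sphingosine-1-phosphate, was 1552 and 1302 in mouse 4001, 465 in mouse 4002, 693 and 692 in mouse 4007, and 469 and 484 in WT. Here the groups overlapped, since mouse 4002 was below both WT libraries. The Apom ratio to WT was 2.99, 0.976 and 1.45 in mice 4001, 4002 and 4007.

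Among the proteins of very low density lipoproteins, Apoc1 was higher throughout, and Apob and Apoc3 were high in mouse 4001 alone. Apoc1, which inhibits lipoprotein uptake and lipid transfer, was 551 and 414 in mouse 4001, 229 in mouse 4002, 228 and 259 in mouse 4007, and 115 and 128 in WT. Its ratio to WT was 3.96 in mouse 4001 and 1.88 in mouse 4002, the lowest, with a mean level of 318 ± 142 (SD, n = 3). Apob, the structural protein of VLDL and chylomicrons, was 703 and 359 in mouse 4001, 160 in mouse 4002, 124 and 138 in mouse 4007, and 169 and 184 in WT. Mice 4002 and 4007 were thus below both WT libraries. The mean log2 fold change of Apob was 0.34 ± 1.09 (SD, n = 3), and it turned to −0.29 without mouse 4001. Apoc3, an inhibitor of triglyceride clearance, was 440 and 240 in mouse 4001, 137 in mouse 4002, 150 and 167 in mouse 4007, and 146 and 161 in WT. Mouse 4002 was below both WT libraries and the libraries of mouse 4007 lay beside them. The mean log2 fold change of Apoc3, 0.34 ± 0.70 (SD, n = 3), became −0.06 without mouse 4001.

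Apod and Apoh showed the largest ratios to WT of the 10 genes. Apod, a lipocalin made in many tissues, was 97.6 and 124 in mouse 4001, 61.0 in mouse 4002, 90.3 and 126 in mouse 4007, and 18.9 and 14.5 in WT. The lowest LBR-null library was above both WT libraries, and the mean of 93.3 ± 28.0 (SD, n = 3) was 5.59 times WT. Fibroblasts are among the known sources of APOD, and the summed level of 7 fibroblast markers was 16916 to 29184 in the LBR-null mice against 41032 in WT. By the LBR-null mean 2 of them, Dcn (2.03 times WT) and Lum (2.59 times, high in mouse 4001 alone), were 2-fold higher. The 3 collagen genes Col1a1, Col1a2 (both called lower by DESeq2) and Col3a1 were 2-fold lower, and none of the 7 markers was at 0. The part of these markers in the Apod level was not tested. Apoh, beta-2-glycoprotein I, which binds phospholipids, was 707 and 440 in mouse 4001, 79.1 in mouse 4002, 363 and 333 in mouse 4007, and 33.1 and 29.9 in WT. Every LBR-null library was above WT, but the LBR-null mice differed among themselves more, on the log2 scale, than for any other member. The Apoh ratio to WT was 18.2, 2.51 and 11.1 in mice 4001, 4002 and 4007.

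Apoa4, an apolipoprotein of chylomicrons and HDL, was the member that was lower. It was 57.4 and 42.6 in mouse 4001, 37.0 in mouse 4002, 23.3 and 44.7 in mouse 4007, and 162 and 136 in WT. All LBR-null libraries were below both WT libraries, and the mice lay close together, with a mean of 40.3 ± 8.52 (SD, n = 3), 0.271 of WT. Its log2 fold change was −1.88 ± 0.29 (SD, n = 3), the smallest spread of the 10. Of 10 markers of small intestine enterocytes 5 were 2-fold higher and 1 was 2-fold lower in the LBR-null mean, but 3 of these 6, Fabp2, Sis and the lower Cdx1, had a mean over mice under the 5 set for testing and at most 4, 9 and 2 reads in a library. DESeq2 called Rbp2 (57.6 to 242 in the LBR-null mice, 0.787 in WT) and Cdx2 (25.4 to 32.7, against 3.38) higher. Alpi was at 0 in all libraries and Fabp2, Rbp2, Sis and Cdx1 in at least 1. The markers' summed level was 1634 to 2671 in the LBR-null mice against 3176 in WT. Most of that sum was Vil1, at 2265, 1406 and 1747 in mice 4001, 4002 and 4007 and 3094 in WT. The lower sum is thus that of Vil1 and does not hold for Rbp2 or Cdx2. The part of these markers in the level of Apoa4 was not tested.

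A gene was counted as 2-fold higher or lower where the LBR-null mean was at least 2 times the WT level or the reverse. By this count 6 of 10 members were higher (Apoe, Apoa1, Apoa2, Apoc1, Apod and Apoh), beside 22.7% of the 21468 genes above 0 in either group, and 1 was lower (Apoa4), beside 8.80%. In the same 6 genes every LBR-null library exceeded both WT libraries, as in 22.2% of all genes, and in Apoa4 every LBR-null library was below them, as in 21.4%. These shares are the background only and nothing is read from the members' counts, since the members were chosen on this contrast. The median log2 fold change was 1.36 over the members and 0.01 over the 17283 genes tested.

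The counts differed greatly between the mice. In mouse 4001, 9 members were at least 2-fold above WT (20.6% of all genes were) and 1 was 2-fold below (14.4%). In mouse 4007 the counts were 6 (23.0%) and 1 (11.1%). In mouse 4002, the mouse alike to WT in Xist and Ddx3y, they were 3 (16.9%), namely Apoe, Apod and Apoh, and 1 (11.3%), Apoa4. Mouse 4001 was the highest of the LBR-null mice for all 10 genes, and mouse 4002 the lowest for 8. No shares over all genes are given beside these counts, so nothing particular to the members is read from this order. Without mouse 4001 the mean of the other LBR-null mice was 2-fold above WT for 4 genes, Apoe, Apoa2, Apod and Apoh (21.7% of all genes), and 2-fold below for Apoa4 (9.07%).

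**Figure D2:**
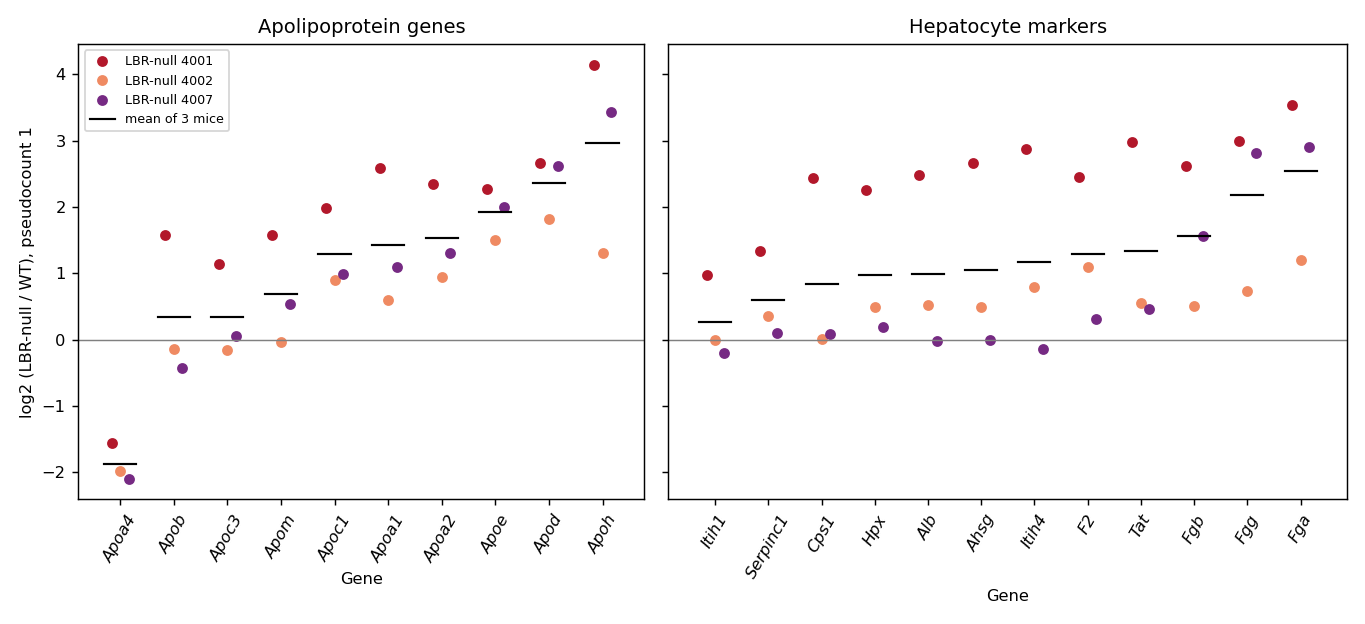
The log2 ratio of each LBR-null mouse to the WT mouse (vertical axis, pseudocount 1) for the 10 apolipoprotein genes on the left and 12 hepatocyte markers on the right. Points are mice and black bars their mean over 3 mice. Mouse 4001 is highest for all apolipoprotein genes, and mouse 4007 is near 0 for Alb but far above 0 for the hepatocyte markers Fga, Fgg and Fgb as well as for Apoe, Apod and Apoh.

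Markers of other cell types differed between the genotypes as well. All 8 neutrophil markers were 2-fold higher in the LBR-null mean, with a summed level of 382 to 2419 against 80.2 in WT and 5 called higher by DESeq2. Of 6 adipocyte markers 5 were 2-fold lower, with a summed level of 65.3 to 295 against 1500.5 in WT and 3 called lower by DESeq2. The neutrophil markers Retnlg, Camp, Mpo and Elane were at 0 in single libraries and the other markers of both lists in none, and their part in the members' levels was not tested.

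Hepatocyte markers were high together with the members in mouse 4001. Of 12 such markers, which are no members, 10 were 2-fold higher by the mean of the LBR-null mice, but 11 were so in mouse 4001 and only 2 and 3 in mice 4002 and 4007. DESeq2 called 2 of the 12 higher, Fga and Fgg. Without mouse 4001 their log2 fold changes were 2.05 and 1.77, beside a median of 0.33 over the 12 markers. Alb, the gene of serum albumin, was 11133 and 6385 in mouse 4001, 2245 in mouse 4002, 1589 and 1503 in mouse 4007, and 1559 and 1571 in WT. Its level in mouse 4007 was thus that of WT. The summed level of the 12 markers came to 20495, 4857 and 7901 in mice 4001, 4002 and 4007 and to 3069 in WT, with most of the excess of mouse 4007 in the fibrinogen genes Fga (3946 against 529 in WT) and Fgg (1279 against 181), and none of the 12 was at 0. The part of hepatocyte RNA in the members' levels was not tested.

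The libraries of mouse 4001 also differed from each other in these genes. Library 1 was above library 2 for 9 of 10 members, with a median ratio of 1.37. Over the 13058 genes with a mean of at least 50 the median ratio was 1.02 and the middle 95% ran from 0.639 to 1.46. Apob (1.96), Apoc3 (1.84) and Apoh (1.61) were above that range. The hepatocyte markers had a median ratio of 1.70 between the same libraries and 10 of 12 were above that range. In mouse 4007, by contrast, the median ratio was 0.912 for the members and 0.995 for the hepatocyte markers, and in WT 0.981 and 0.956. The members outside the middle 95% there were Apod (0.718) and Apoa4 (0.521) in mouse 4007, and Apod (1.31) and Apoa1 (0.713) in WT. Apod and Apoa4 are low members, with as few as 16 and 25 reads in a library, so their ratios are imprecise. Apoe differed between libraries of a mouse by a ratio of 1.33 in mouse 4001, 0.938 in mouse 4007 and 1.07 in WT.

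**Figure D3:**
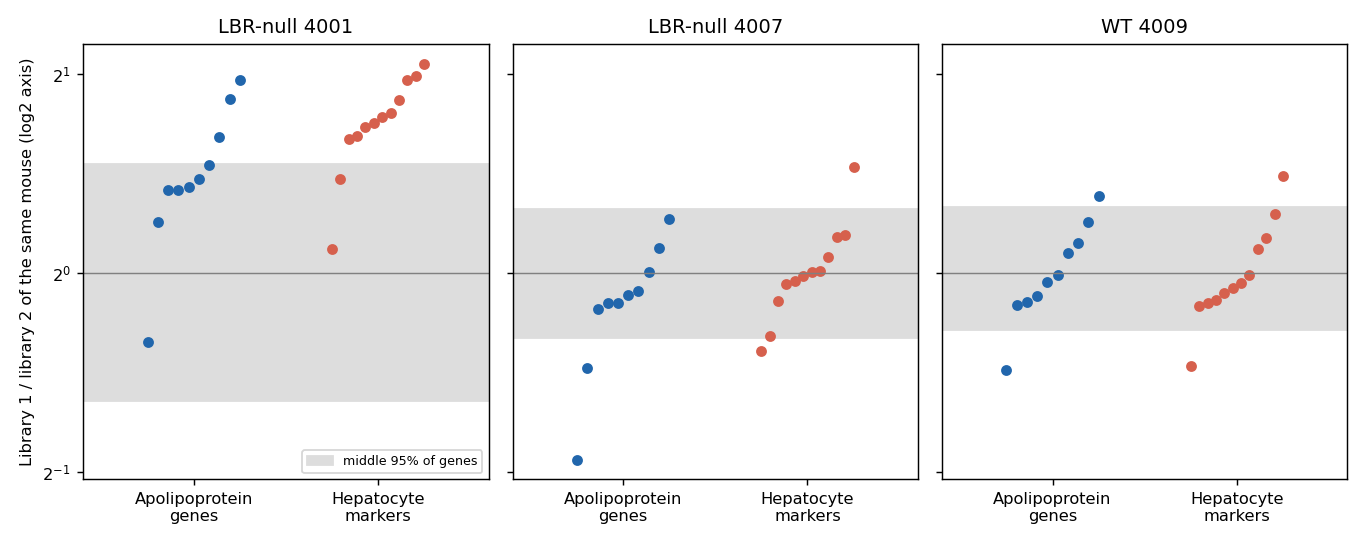
Ratio of library 1 to library 2 of the same mouse (vertical axis, log2 scale) for the apolipoprotein genes and hepatocyte markers in the mice with 2 libraries. Each point is a gene, and the grey band holds the middle 95% of genes with a mean of at least 50. In mouse 4001 both sets lie mostly above 1, with 10 of 12 hepatocyte markers above the band.

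The members spanned a wide range of levels per kb of exon. In LBR-null kidneys the order of these levels in normalized counts per kb was Apoe (50070 ± 12950, SD, n = 3), Apoa2 (1338 ± 719), Apom (837 ± 489), Apoc1 (593 ± 265), Apoa1 (292 ± 221), Apoh (209 ± 155), Apoc3 (209 ± 110), Apod (36.2 ± 10.9), Apoa4 (22.2 ± 4.70) and Apob (19.6 ± 16.0). The ranges over mice did not overlap between Apoe and Apoa2 or between Apoc3 and Apod. Every other pair of neighbours overlapped, although Apoa2, Apom, Apoc1 and Apod each exceeded the next gene within all 3 mice. In WT the order was Apoe (12877), Apom (463), Apoa2 (421), Apoc1 (227), Apoc3 (151), Apoa1 (90.3), Apoa4 (82.1), Apoh (19.7), Apob (12.7) and Apod (6.48). Apoa4 was thus more abundant per kb than Apoh and Apod in WT and less abundant than both in the LBR-null mean.

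In the cluster of Apoe the apolipoprotein genes were all above WT in the LBR-null mean and the flanking genes lay on both sides of it, and in the cluster of Apoa1 the apolipoprotein genes themselves differed in direction. The genes around the members were outside the rule for named genes and were chosen after their values had been seen. Apoc1, whose 5′ end lies 6.51 kb from that of Apoe, had a log2 fold change of 1.29 ± 0.60 (SD, n = 3) beside 1.92 ± 0.39 for Apoe. Apoc4, 17.8 kb away, had 2.50 ± 0.35, at 17.1 ± 4.63 normalized counts against 2.14 in WT. Tomm40, which encodes the pore of the mitochondrial outer membrane import complex and lies 16.3 kb away on the other side, had −0.58, Pvrl2, beyond it, 0.43, and Clptm1 −0.25. Apoc2, whose annotated span takes in that of Apoc4 on the same strand so that reads could be split between them, had 0.63. It averaged 1.29 in the LBR-null mice and 0.452 in WT and held 3 reads at most in a library. On chromosome 9, Apoa1 had a log2 fold change of 1.42 ± 1.04 (SD, n = 3), Apoc3, 7.06 kb away, 0.34 ± 0.70, and Apoa4, 12.1 kb away, −1.88 ± 0.29. Apoa5, 40.1 kb from Apoa1, was 141 in mouse 4001 and 22.2 to 31.8 in the other LBR-null mice against 23.6 in WT. Apoa1 and Apoa4, which share the strand and the cluster, were therefore on opposite sides of WT in all LBR-null libraries.

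**Figure D4:**
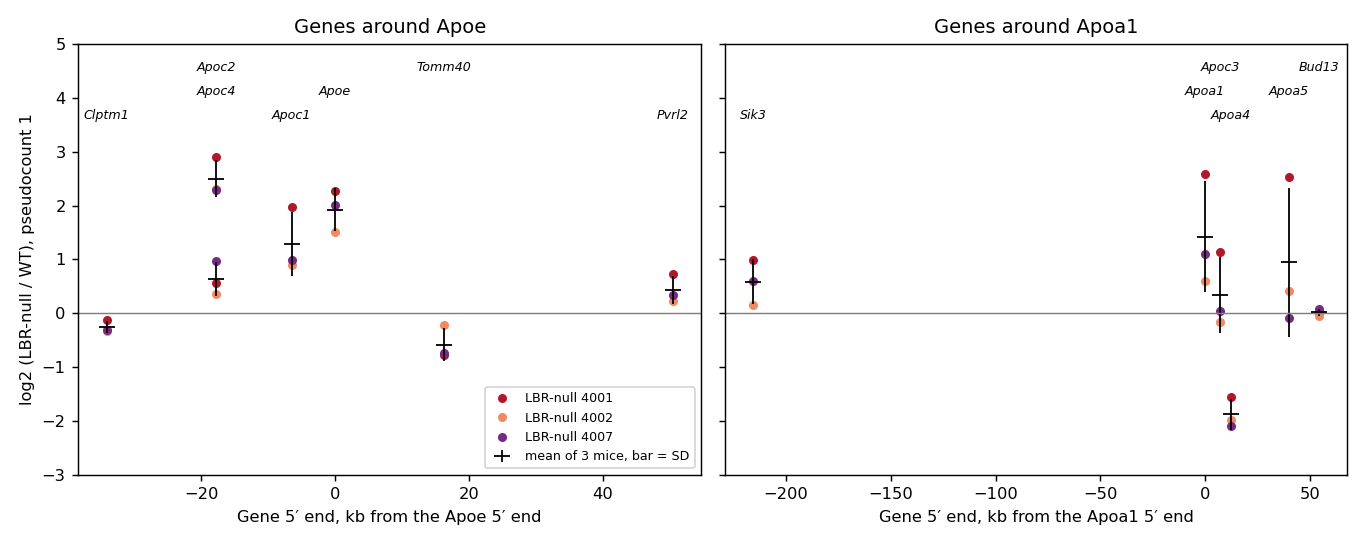
The log2 ratio of LBR-null to WT (vertical axis, pseudocount 1) against the distance in kb between the 5′ end of each gene and that of Apoe (left) or Apoa1 (right). Points are the LBR-null mice, and the black marks with bars are the mean and SD of 3 mice. Apoa4 lies below 0 between Apoa1 and Apoa5, and Tomm40 lies below 0 beside Apoe.

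Over the 7 libraries the genes most like Apoe, by the root mean square distance between log2 values centred on each gene's mean, were Cirbp (0.086), Serpina1a (0.102) and Frat1 (0.112), out of 13065 genes with a mean of at least 50. Cirbp, a cold-inducible RNA-binding protein, was 4544 and 3664 in mouse 4001, 2241 in mouse 4002, 3465 and 3575 in mouse 4007, and 772 and 789 in WT. Like Apoe, it was lowest of the LBR-null libraries in mouse 4002 and far above WT in all. Among the members Apod (0.335, place 120 in that order) and Apoa2 (0.345, place 132) came nearest to Apoe, and Apoa4 (1.79) was farthest. These distances rest on libraries of 4 mice and describe them only.

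The genes that act with the members were tested in the fit across all genes, limma on log2(normalized count + 1) of mouse means with Benjamini-Hochberg adjustment. This fit called no gene, 0% of 17283 tested, at an adjusted p of 0.05 and 2-fold, while 10.7% had an unadjusted p under 0.05 with a higher and 8.05% with a lower value. With edgeR on the recovered reads the calls were 0.162% in either direction, and with DESeq2 3.05% upward and 3.55% downward. Without mouse 4001, limma called 2.94% of genes higher and 3.83% lower, without mouse 4002 1.96% higher and 1.66% lower, and without mouse 4007 0% in either direction, so that none of the list genes below was called without mouse 4007. Each fit takes the spread of the LBR-null mice for that of the single WT mouse.

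Of 16 lipoprotein receptors and adaptors, all tested, limma and edgeR called 0, an unadjusted limma p under 0.05 was found for 1 higher and 5 lower genes, and the DESeq2 calls were 1 upward and 2 downward. Their median log2 fold change was −0.47, against 0.01 over all genes tested. Lrp2 (megalin), the endocytic receptor of the proximal tubule, was 11985, 7019 and 5560 in mice 4001, 4002 and 4007 and 23320 in WT, so all LBR-null mice were well below WT. Its log2 fold change was −1.59 (SE 0.47, limma adjusted p = 0.152, DESeq2 called lower). Its chaperone Lrpap1 had −1.23 and was also called lower by DESeq2, and Cubn (cubilin) had −0.98. Proximal tubule markers, a list that also holds Lrp2 and Cubn, also differed, as 7 of 10 were 2-fold lower in the LBR-null mean (6 called lower by DESeq2) and 1, Slc5a12, was 2.55 times WT and called higher by DESeq2. Their part in the receptor values was not tested. Mylip, a ubiquitin ligase that degrades lipoprotein receptors, was 3504, 1804 and 2669 in mice 4001, 4002 and 4007 and 904 in WT, with a log2 fold change of 1.50 (SE 0.38, limma adjusted p = 0.123, DESeq2 called higher). Vldlr (0.85, or 0.55 without mouse 4001) and Cd36 (0.24) had the next highest values and were not called by limma, edgeR or DESeq2. Cd36 was above WT in mouse 4001 alone, with −0.40 without it. Without mouse 4001 limma called 5 of the 16, with Mylip higher and Lrp2, Lrpap1, Cubn and Amn lower, and without mouse 4002 it called Mylip higher.

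Of 21 genes of lipoprotein assembly, lipases and lipid transfer 20 were listed in the files, and Angptl8 was not analysed. limma and edgeR called 0 of the 20, an unadjusted limma p under 0.05 was found for 4 higher genes and 1 lower gene, the DESeq2 calls were 3 upward and 1 downward, and the median log2 fold change was −0.16, or 0.01 without mouse 4002. Angptl4, an inhibitor of lipoprotein lipase, was 10259, 4032 and 9459 in mice 4001, 4002 and 4007 and 1069 in WT, with a log2 fold change of 2.77 (SE 0.54, limma adjusted p = 0.101). Abca1, which loads cholesterol onto APOA1 and APOE, was 3164, 2520 and 3588 in these mice and 967 in WT, with a log2 fold change of 1.66 (SE 0.28, limma adjusted p = 0.0906). Both were above WT in 3 of 3 mice and were called higher by DESeq2 and by limma without mouse 4001 or 4002. The other gene that DESeq2 called higher was Abcg1, a cholesterol exporter outside the rule for named genes, with 1.04. Gpihbp1, the anchor of lipoprotein lipase on capillaries, had 1.17. On the low side were Pltp, the phospholipid transfer protein (−1.03, called lower by DESeq2), Lcat, the cholesterol esterifying enzyme of HDL (−0.79), and the endothelial lipase Lipg (−0.61). The last 2 had −0.51 and −0.31 without mouse 4007.

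**Figure D5:**
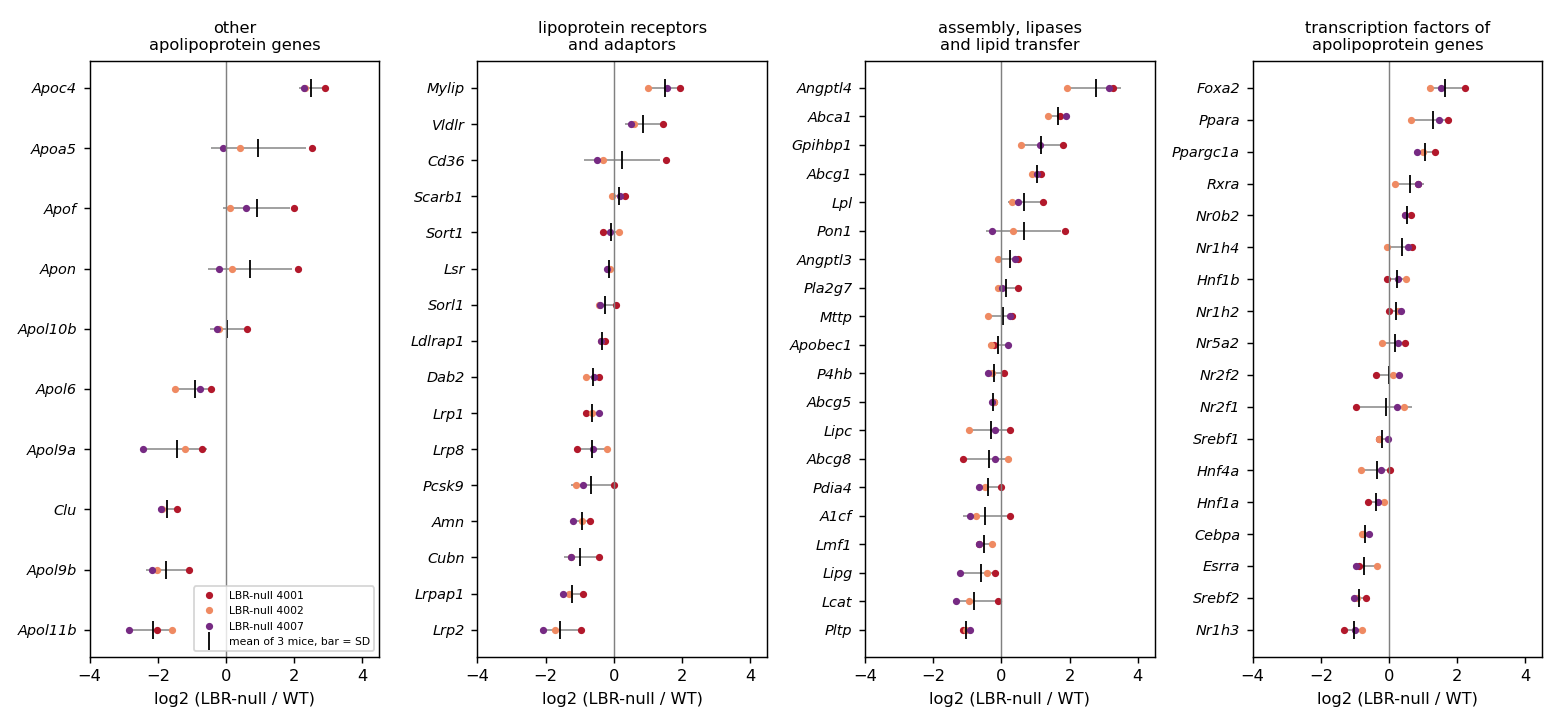
The log2 ratio of LBR-null to WT (horizontal axis, pseudocount 1) of the tested genes of each of 4 lists. Coloured points are the LBR-null mice, and black marks with grey bars the mean and SD of 3 mice. Mylip, Angptl4 and Abca1 lie above 0 in every mouse, and Lrp2, Lrpap1 and Clu lie below 0.

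Of 18 transcription factors known to act on apolipoprotein genes, limma and edgeR called 0, an unadjusted limma p under 0.05 was found for 2 higher and 3 lower genes, the DESeq2 calls were 1 upward and 1 downward, and the median log2 fold change was 0.09, or −0.01 without mouse 4007. Foxa2 (1.65, at 4.30 to 9.81 normalized counts in the LBR-null mice and 1.30 in WT), Ppara (1.28), the receptor that responds to fatty acids, and its coactivator Ppargc1a (1.05, called higher by DESeq2) had the highest values. Nr1h3 (−1.04, called lower by DESeq2), which encodes the oxysterol receptor LXR alpha, Srebf2 (−0.88), the activator of sterol synthesis, and Esrra (−0.73) had the lowest. Ppara was called higher by limma without mouse 4002. Hnf4a, which regulates many hepatocyte and proximal tubule genes, was outside the rule for named genes. It was 11949, 6624 and 9965 in mice 4001, 4002 and 4007 and 11810 in WT, so mouse 4001 was near WT and the other LBR-null mice were below it.

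Of 15 other apolipoprotein genes all were listed, 10 passed the minimum mean of 5, and Apol7e was at 0 in every library. limma and edgeR called 0 of the 10, an unadjusted limma p under 0.05 was found for 1 higher and 3 lower genes, and DESeq2 called 1, Clu, lower. The median log2 fold change of these 10 genes was −0.43. Over the alternatives it ran from −0.11 with first libraries only to −0.70 with mouse 4002 alone, with −0.69 without mouse 4001 and −0.22 without mouse 4002. It was 1.36 for the 10 members, which were chosen with this contrast known. The list had no common direction. Of its 14 genes above 0, 6 were 2-fold higher in the LBR-null mean (22.7% of all genes) and 5 were 2-fold lower (8.80%). Without mouse 4001, 2 were 2-fold higher (21.7%). Clu, the chaperone clusterin (apolipoprotein J), was 4558, 3360 and 3271 in mice 4001, 4002 and 4007 and 12244 in WT, so it was below WT in 3 of 3 mice. Its log2 fold change was −1.73 (SE 0.30, limma adjusted p = 0.0938), and limma called it without mouse 4001, together with Apol9b. Apol9b (−1.77) and Apol11b (−2.15), of the APOL family, were at 2.29 to 27.4 normalized counts in the LBR-null mice, against 59.6 and 22.6 in WT. Apoc4 (2.50) was above WT in 3 of 3 mice. Apoa5 (0.95), a regulator of triglyceride clearance, and Apof (0.90) resembled Apob and Apoc3 in that mouse 4001 alone was far above WT, with 0.16 and 0.35 without it.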

How the data were processed

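Kidney RNA-seq of 3 LBR-null mice and 1 WT littermate was used. Per the labels, the authors used STAR 2.6.0, the mm9 build and DESeq2 1.25.1. The deposited values, 1 signal per gene symbol and library, are read counts divided by the size factor of the library, and all (100%) were whole multiples of the lowest step within 0.01 read. The counting program and annotation were not given in the sources used here. Libraries were averaged within a mouse. limma 3.58.1 in R 4.3.3 was run on log2(normalized count + 1) where the mean over mice was 5 or more, with 2 residual degrees of freedom and a call at an adjusted p of 0.05 and 2-fold. edgeR 4.0.16 and DESeq2 1.42.0 on recovered reads summed per mouse, other pseudocounts, scalings and filters, and leaving out mice or libraries were alternatives. The members and lists were chosen with earlier results of these data known. A gene of the receptor list is not reported here and was left out of that list. All members were named, and of the lists the genes called by limma or, as there were none, the 3 highest and 3 lowest log2 fold changes, with Lbr, Xist and Ddx3y as label checks, Alb, and the 3 genes nearest to Apoe. Other list and marker genes in the text, among them Amn, Abcg1, Hnf4a, Apol7e, Fga, Fgg, Fgb, Vil1, Alpi, Rbp2, Cdx2, Fabp2, Sis, Cdx1, the neutrophil markers, Cd163, Trem2, Dcn, Lum, Slc5a12 and the collagen genes, were chosen after their values were seen. Separate mice are biological replicates, whereas the sources used here do not say whether libraries of a mouse are separate extractions.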

Additional observations from a re-analysis of the deposited data

How the results depend on the processing

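The members' log2 fold changes were computed under 11 alternatives. Under the 8 that kept all mice or used mouse 4002 alone, 77 of 80 values moved by less than the SD over the mice, 3 of them with a change of sign, and 3 moved further. All of these sign changes and further moves came with mouse 4002 alone. There Apoe (1.50), Apod (1.81) and Apoh (1.30) moved further, and Apob, Apoc3 and Apom changed sign. Leaving out 1 of 3 mice cannot move a mean by that SD, so those 30 values are given by range and sign only, and 2 of them changed sign. When an LBR-null mouse was left out, Apob ran from −0.286 to 0.721 and Apoc3 from −0.0593 to 0.594, with the lowest values without mouse 4001. With mouse 4002 alone Apob was −0.141, Apoc3 −0.165 and Apom −0.0352. The members 2-fold higher numbered 4 to 7 when an LBR-null mouse was left out and 3 with mouse 4002 alone, against 6, and other scalings, pseudocounts and single WT libraries left 6. The gene calls of limma, 0 in each direction, became 0 to 505 higher and 0 to 658 lower when a mouse was left out, with the 0 without mouse 4007, 1 higher with WT library 2 alone, 1 higher and 27 lower with edgeR, and 528 higher and 614 lower with DESeq2. Leaving out a mouse gave 0 to 5 calls among receptors and adaptors, 0 to 2 among assembly, lipase and transfer genes, 0 to 1 among transcription factors and 0 to 2 among other apolipoprotein genes, and DESeq2 called 3, 4, 2 and 1. The median of the receptors was −0.434 to −0.376 when a mouse was left out, against −0.472, −0.366 with WT library 1 alone and −0.359 with first libraries only. The median of the assembly list was −0.164 to 0.012 and that of the transcription factors −0.00914 to 0.224 when a mouse was left out, both with a change of sign. The median of the other apolipoprotein genes, −0.428, was −0.688 to −0.217 when a mouse was left out, −0.145 with WT library 1 alone, −0.662 with WT library 2 alone and −0.106 with first libraries only. The cause of these changes was not tested. No paired analysis was possible because the numbers in the labels mark libraries of the same mouse and do not pair mice across genotypes. A single WT mouse limits every comparison, and low members such as Apod rest on as few as 16 reads.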
